A study of Mus musculus with 8 samples.

Results

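The genes described here were 8 transcription regulators of thymic epithelial identity: Foxn1, Pax1, Pax9, Six4, Eya1, Hoxa3, Trp63 and Isl1. They were listed by name, with earlier results of these data known. All 8 were among the 25466 genes of the count table, and all 8 passed the filter on low counts that left 17006 genes for testing. Hoxa3 passed it only through a single subset, named with its results below. They were followed across 4 subsets of mouse medullary thymic epithelial cells (mTECs), the cells of the thymic medulla that display tissue antigens to developing T cells. The subsets were Tspan8negMHCIIlo, Tspan8negMHCIIhi, Tspan8posMHCIIhi and Tspan8posMHCIIlo, sorted by a surface tetraspanin that serves as a tissue-restricted antigen and by MHC class II, a marker of mTEC maturity. Each subset had 2 libraries, and the cells came from wild-type BL6N6 mice of 4 to 6 weeks, without treatment, gated as CD45neg, Epcam-positive and CDR1neg. The labels call the 2 libraries biological replicates and do not say which mice they came from, so the p-values measure the spread between these libraries.

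The thymus arises from the third pharyngeal pouch, where Hoxa3, Pax1, Pax9, Eya1 and Six4 act in a shared patterning network ahead of Foxn1. Foxn1 is a forkhead factor without which thymic epithelium does not form a functional organ, and it continues to be needed for the upkeep of the organ after birth. Trp63 encodes p63, which maintains the progenitors of stratified epithelia, and Isl1 is a LIM-homeodomain factor of the pouch endoderm and of neuroendocrine cells.

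Counts were divided by TMM-scaled library sizes to give CPM (library-scaled counts), the level given throughout for a gene followed across libraries. A gene was called higher or lower at an adjusted p under 0.01 in edgeR's quasi-likelihood test together with a log2 fold change beyond 1 in size. Library totals ran from 1941518 to 7783841 counts, 3 counts were taken as the floor of detection, and the floor lay between 0.383 and 1.65 CPM. Epcam lay between 366 and 1078 CPM in the 8 libraries, so the sorted cells carried their defining epithelial marker. The thymocyte markers summed to 503 and 1449 CPM in the Tspan8negMHCIIlo replicates and to between 90.6 and 255 CPM in the other 6 libraries. The second Tspan8negMHCIIlo library therefore stood apart, and calls that changed without it are given beside the results they touch.

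The members spanned a wide range of levels, and Foxn1 led 3 of the 4 subsets once levels were divided by exon length. In CPM per kilobase of exon, Foxn1 stood at 66.3 ± 2.81 in Tspan8negMHCIIhi and 38.7 ± 1.74 in Tspan8posMHCIIhi (mean ± SD, n = 2 here and below), and it was also first in Tspan8posMHCIIlo. In Tspan8negMHCIIlo the same scale put Pax1 at 20.6 ± 4.52, Foxn1 at 19.8 ± 1.61 and Pax9 at 19.1 ± 3.80, an order that lay within the spread of the replicates. Hoxa3 was the lowest member per kilobase in every subset, from 0.101 ± 0.0958 in Tspan8posMHCIIhi to 1.48 ± 0.604 in Tspan8negMHCIIlo. By mean CPM over all libraries, Foxn1 ranked at the 89.2 percentile of the tested genes and Hoxa3 at the 16.3 percentile.

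**Figure D1:**
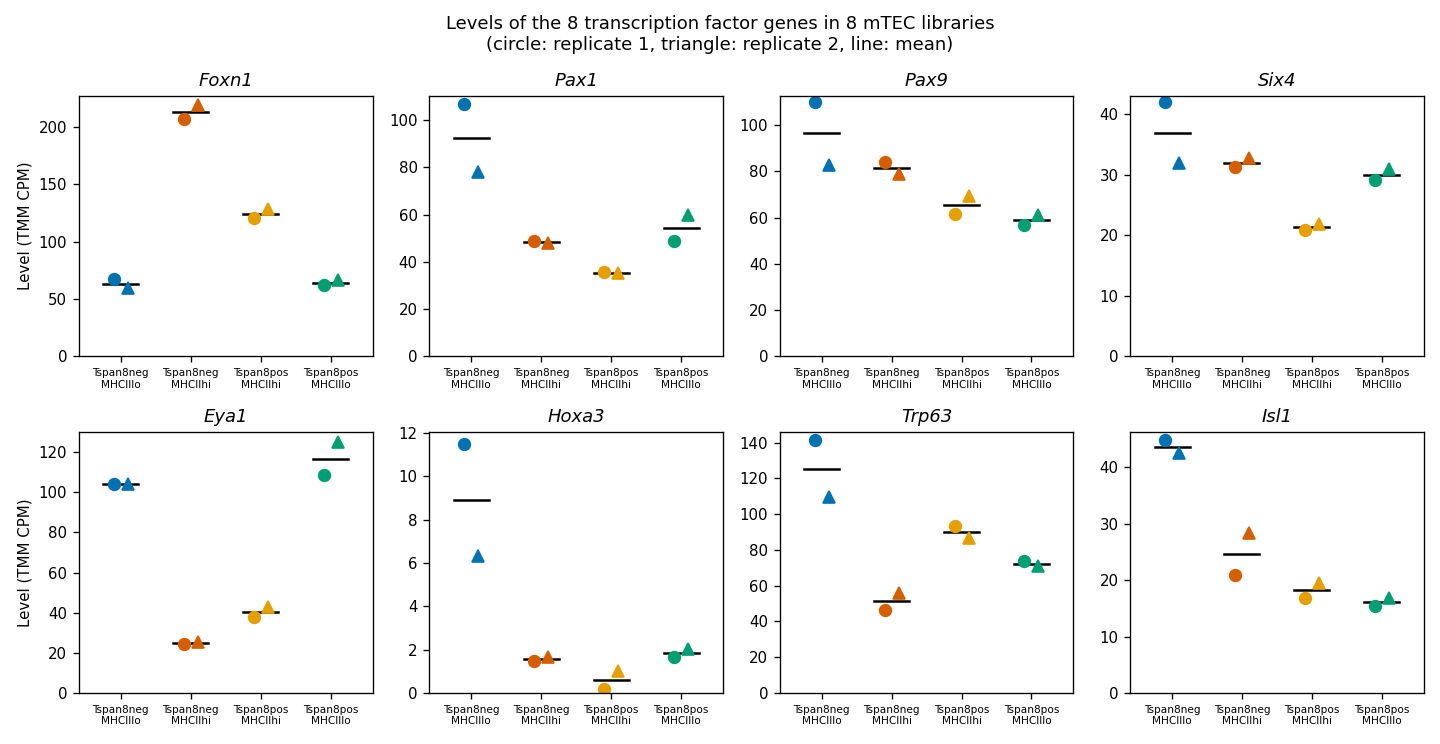
Level of each of the 8 genes in every library, in TMM-scaled CPM, with 1 panel per gene and the 4 subsets along the horizontal axis. Circles and triangles are the 2 libraries of a subset and lines are subset means, and Foxn1 peaks in Tspan8negMHCIIhi (207 and 219 CPM), where Eya1 is lowest (24.4 and 25.3 CPM).

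Members were compared along both axes of the sort. Between the MHCII levels of the Tspan8neg cells, 4 of the 8 members were called, 1 higher (Foxn1) and 3 lower (Eya1, Hoxa3 and Trp63) in MHCIIhi, where 22.7% of all tested genes were called. Between the MHCII levels of the Tspan8pos cells only Eya1 was called, lower in MHCIIhi, against 7.21% of all genes in either direction and 2.62% lower. In MHCIIlo cells only Isl1 was called between the Tspan8 levels, lower in Tspan8pos, against 21.4% of all genes in either direction and 9.34% lower. In MHCIIhi cells 0 of 8 members were called between the Tspan8 levels by edgeR or by DESeq2, against 18.5% of all genes by edgeR, although 6 of the 8 had an unadjusted p under 0.05. These comparisons share subsets with one another and are not independent.

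**Figure D2:**
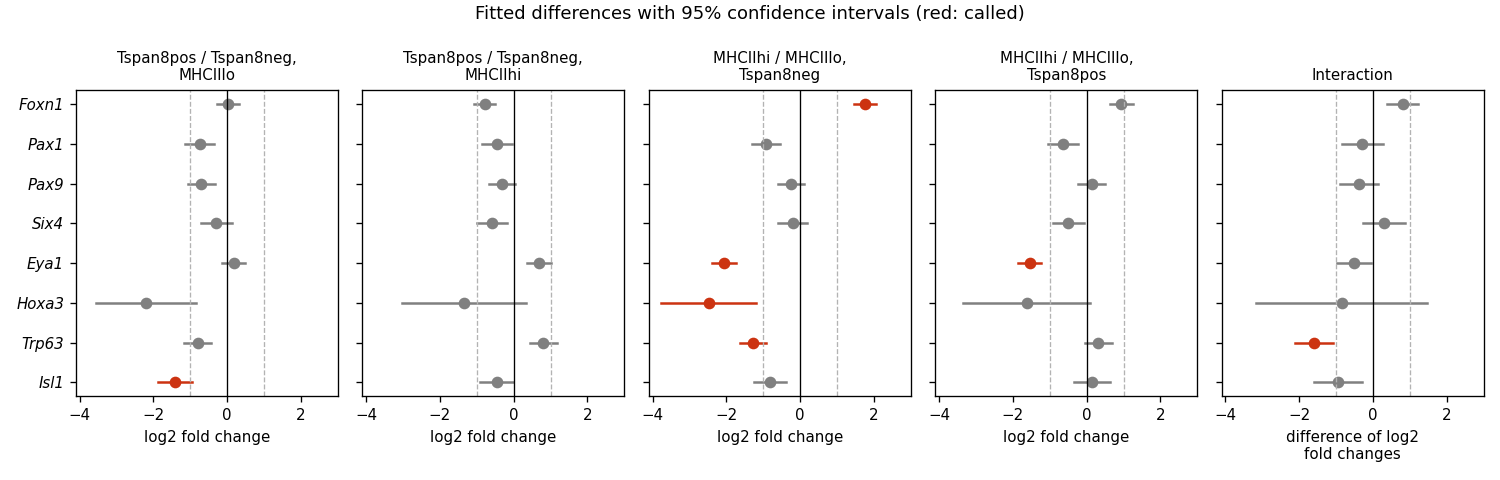
Log2 fold change of each member from edgeR between the Tspan8 levels, between the MHCII levels and for the difference between the MHCII effects (interaction), with 95% confidence intervals as bars and dashed lines at a log2 fold change of 1 in either direction. Called members are drawn in red, and Foxn1 (1.75) and Eya1 (-2.06) lie on opposite sides of 0 between the MHCII levels of Tspan8neg cells.

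Subsets that differed in both markers were also compared. Between Tspan8posMHCIIlo and Tspan8negMHCIIhi, 2 of 8 members were called against 29.3% of all genes, with Foxn1 lower in Tspan8posMHCIIlo and Eya1 higher. Between Tspan8posMHCIIhi and Tspan8negMHCIIlo, 4 of 8 members were called against 24.7% of all genes, and Pax1, Eya1, Hoxa3 and Isl1 were all lower in Tspan8posMHCIIhi, where 10.3% of all genes were lower. The median log2 fold change of the 8 members was -0.72 for Tspan8pos against Tspan8neg in MHCIIlo, -0.45 in MHCIIhi, -0.87 for MHCIIhi against MHCIIlo in Tspan8neg and -0.18 in Tspan8pos. The median of all tested genes lay between -0.04 and 0.01 in these comparisons.

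Foxn1 followed MHCII. It is encoded on the minus strand of chr11:78357577-78386558 (GRCm38), with no other annotated exon across its own. Its level was 207 and 219 CPM in the Tspan8negMHCIIhi replicates and 120 and 128 CPM in those of Tspan8posMHCIIhi. In the MHCIIlo subsets it was 67.2 and 59.9 CPM without Tspan8 and 62.0 and 66.6 CPM with it. All 4 MHCIIhi libraries were above all 4 MHCIIlo libraries, and the MHCIIlo subsets overlapped.

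In Tspan8neg cells Foxn1 was 3.36-fold higher in MHCIIhi (log2 fold change 1.75 ± 0.14 SE, edgeR adjusted p = 4.43e-06). In Tspan8pos cells it was 1.92-fold higher (0.94 ± 0.14 SE, adjusted p = 0.000809), which passed the p threshold and missed the fold limit. Between the Tspan8 levels it was 1.72-fold lower in Tspan8pos cells among MHCIIhi (-0.78 ± 0.13 SE, adjusted p = 0.000713), again short of the fold limit. Among MHCIIlo cells the difference was 0.02 with a 95% interval from -0.28 to 0.33. The difference between the 2 MHCII effects was 0.80 ± 0.19 SE with an adjusted p of 0.0197, so it was not called. In bulk libraries such as these, fewer Foxn1-expressing cells and less Foxn1 RNA per cell cannot be told apart, and the same holds for each gene below.

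Of 8 genes known to depend on Foxn1 in thymic epithelium, several were called, and not all in the direction of Foxn1. In Tspan8neg cells 3 were higher in MHCIIhi and 2 lower, where 13.1% of all genes were higher and 9.67% lower. The T cell chemokine Ccl25 was at 27.7 and 73.1 CPM in Tspan8negMHCIIlo and at 206 and 282 CPM in Tspan8negMHCIIhi, a 4.81-fold rise (2.26 ± 0.33 SE, adjusted p = 0.000262). The Notch ligand Dll4 rose 2.57-fold and Cd83, which stabilises MHC class II, rose 2.43-fold in the same comparison.

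The chemokine Cxcl12 was 61.9 and 58.7 CPM in Tspan8negMHCIIlo and 7.45 and 8.29 CPM in Tspan8negMHCIIhi, 7.58-fold lower (-2.92 ± 0.23 SE, adjusted p = 5.26e-06). The lysosomal protease Ctsl fell 5.55-fold alongside it. Both genes had a called, negative difference between the MHCII effects of Tspan8neg and Tspan8pos cells, 25% of the list against 2.24% of all genes. Without the second Tspan8negMHCIIlo library Cd83 had a called difference of the opposite sign. In Tspan8pos cells 2 of the 8 genes were higher in MHCIIhi, Ccl25 4.84-fold and Dll4 3.36-fold, and 0 were lower. Of all genes 4.59% were higher and 2.62% lower there.

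Between the Tspan8 levels, Foxn1-dependent genes were called in 1 direction. In MHCIIlo 4 of the 8 were lower in Tspan8pos cells, against 9.34% of all genes. Cxcl12 was 5.66-fold, the thymic serine protease Prss16 3.07-fold, Dll4 2.56-fold and Ctsl 2.03-fold lower. Without the second Tspan8negMHCIIlo library 3 were lower, since Prss16 and Dll4 were not called and Kitl, a growth factor for early thymocytes, was. In MHCIIhi only Cd83 was called, 4.37-fold lower in Tspan8pos cells. The median log2 fold change of the list was -1.29 in MHCIIlo and -0.66 in MHCIIhi. Prss16 and Ccl25 are also markers of cortical epithelium. Its 6 markers summed to 244 and 438 CPM in Tspan8negMHCIIlo and 796 and 926 CPM in Tspan8negMHCIIhi. The sums were 454 and 466 CPM in Tspan8posMHCIIhi and 121 and 171 CPM in Tspan8posMHCIIlo. The list was split between the first pair of subsets. Tbata averaged 128 CPM in Tspan8negMHCIIlo and 488 in Tspan8negMHCIIhi, and Ccl25, Ly75 and Enpep also had higher means in the latter. Prss16 went the other way, at 98.0 and 35.8 CPM. So did Psmb11, the cortical proteasome subunit, at 12.6 and 6.84 CPM with overlapping libraries, and between 2.19 and 18.8 CPM in all libraries. The part of cortical cells in these differences was not tested.

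Among 12 signals and regulators known to act on Foxn1, 4 were lower in MHCIIhi of Tspan8neg cells and 0 were higher. This was 33.3% called, against 22.7% of all genes. The Wnt ligand Wnt4 was 108 and 100 CPM in Tspan8negMHCIIlo and 46.4 and 45.4 CPM in Tspan8negMHCIIhi, 2.26-fold lower (-1.18 ± 0.13 SE, adjusted p = 4.89e-05). Kremen1, a Wnt co-receptor antagonist, fell 2.70-fold and the Fgf receptor Fgfr2 fell 7.46-fold, and Bmp4 was called lower from 3.64 and 3.76 CPM to 0.207 and 0 CPM. Between the Tspan8 levels 8.33% of the list was called in MHCIIhi cells (18.5% of all genes) and 8.33% in MHCIIlo cells (21.4%). In MHCIIhi cells Kremen1 was 2.60-fold higher with Tspan8 (1.38 ± 0.13 SE), the sole call of this list there. In MHCIIlo cells Fgfr2 alone was called, 3.86-fold lower with Tspan8, and without the second Tspan8negMHCIIlo library Fgfr2 and Bmpr1a were lower. Between the MHCII levels of Tspan8pos cells 0 of the 12 were called, against 7.21% of all genes. Fgfr2, Wnt4 and Kremen1 each had a called, negative difference between the 2 MHCII effects, 25% of the list against 2.24% of all genes.

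**Figure D3:**
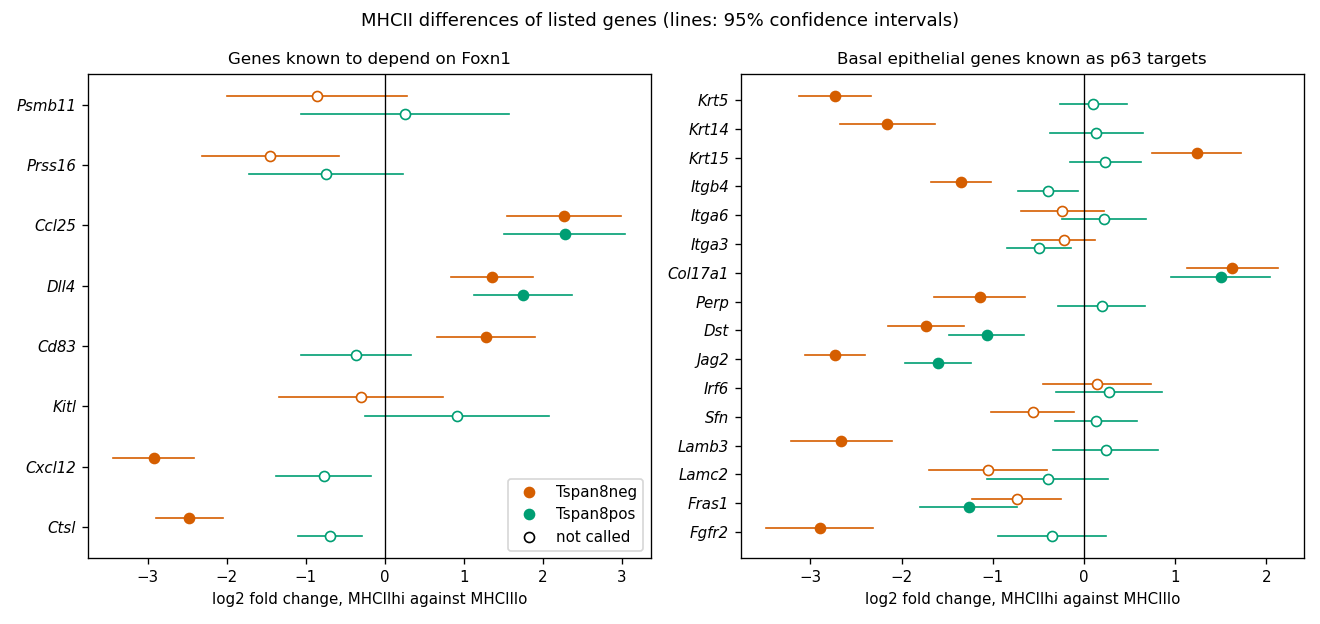
Log2 fold change between the MHCII levels of the genes that depend on Foxn1, in Tspan8neg and in Tspan8pos cells, and of the basal genes known as p63 targets; filled points are called genes. In Tspan8neg cells Ccl25 lies at 2.26 while Cxcl12 lies at -2.92, and the basal genes Krt5 (-2.73) and Jag2 (-2.73) lie far below 0.

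Eya1 ran opposite to Foxn1 and was the member with the most calls. Eya1 is a phosphatase and transcriptional coactivator that partners with proteins such as Six4, and it lies on the minus strand of chr1:14168954-14310235. Its level was 104.2 and 104.1 CPM in Tspan8negMHCIIlo and 109 and 125 CPM in Tspan8posMHCIIlo. In MHCIIhi cells it was 24.4 and 25.3 CPM without Tspan8 and 37.7 and 42.8 CPM with it, so that none of the MHCIIhi libraries reached an MHCIIlo library.

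Eya1 fell 4.18-fold from MHCIIlo to MHCIIhi in Tspan8neg cells (-2.06 ± 0.15 SE, edgeR adjusted p = 2.88e-06) and 2.92-fold in Tspan8pos cells (-1.55 ± 0.15 SE, adjusted p = 4.61e-05). The difference between these effects, -0.52 ± 0.20 SE, was not called (adjusted p = 0.132). Among MHCIIhi cells Eya1 was 1.61-fold higher with Tspan8 (0.69 ± 0.15 SE, adjusted p = 0.00418), below the fold limit, and among MHCIIlo cells the difference was 0.17 with a 95% interval from -0.13 to 0.48. On the diagonal it was 4.71-fold higher in Tspan8posMHCIIlo than in Tspan8negMHCIIhi (2.24 ± 0.15 SE, adjusted p = 5.37e-07).

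**Figure D4:**
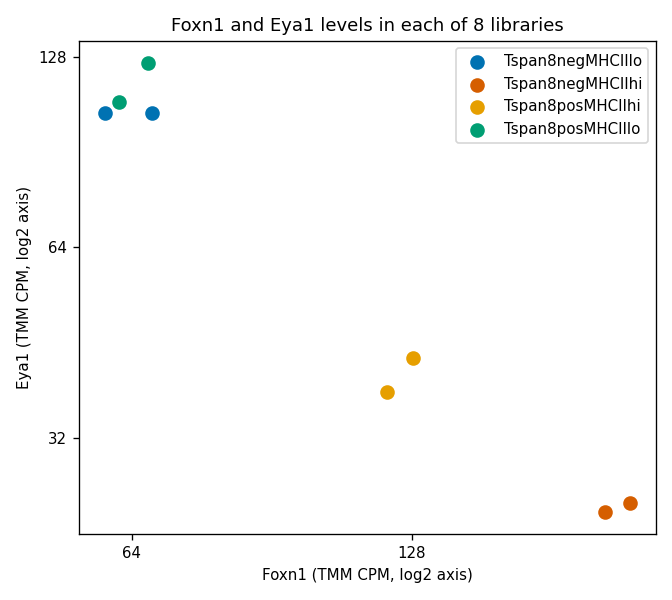
Level of Eya1 (vertical axis) against that of Foxn1 (horizontal axis) in each library, both in CPM on log2 axes, coloured by subset. The Tspan8negMHCIIhi libraries lie at high Foxn1 and low Eya1 (24.4 and 25.3 CPM), the MHCIIlo libraries at low Foxn1 and high Eya1, and the Tspan8posMHCIIhi libraries between them.

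Per kilobase of exon, Eya1 was a minor part of its family in these cells. Of the summed CPM per kilobase of Eya1, Eya2, Eya3 and Eya4, Eya1 made up 14.5% and 19.5% in Tspan8negMHCIIlo, 6.73% and 7.17% in Tspan8negMHCIIhi, 7.52% and 8.61% in Tspan8posMHCIIhi and 18.5% and 22.0% in Tspan8posMHCIIlo. Eya2 led the family at 51.5 ± 14.01 CPM per kilobase in Tspan8negMHCIIlo and 31.5 ± 1.09 in Tspan8negMHCIIhi. These shares depend on the annotated exon length, 7808 bases for Eya1 and 2963 for Eya2. In mean CPM, Eya1 was at 117 and Eya2 at 133 in Tspan8posMHCIIlo, and at 24.8 and 93.4 in Tspan8negMHCIIhi. Eya2 and Eya3 were called in none of the 7 comparisons, and Eya4 was called in 1, lower in Tspan8posMHCIIhi than in Tspan8negMHCIIlo. Without the second Tspan8negMHCIIlo library Eya4 was also called lower with Tspan8 in MHCIIlo cells and lower in MHCIIhi of Tspan8neg cells.

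Six4, a homeodomain partner of the Eya proteins on chr12:73099609-73113456, was called in 0 of the 7 comparisons. Its level was 42.0 and 32.0 CPM in Tspan8negMHCIIlo, 31.3 and 32.8 in Tspan8negMHCIIhi, 20.9 and 21.9 in Tspan8posMHCIIhi and 29.1 and 30.9 in Tspan8posMHCIIlo. The lowest libraries were the pair of Tspan8posMHCIIhi, and the 2 Tspan8neg subsets overlapped. Against Tspan8negMHCIIlo, Six4 in Tspan8posMHCIIhi was 1.73-fold lower with an adjusted p of 0.00524, short of the fold limit. Of its paralogs, Six2 fell 2.36-fold and Six5 fell 2.45-fold with Tspan8 in MHCIIlo cells, the latter not called without the second Tspan8negMHCIIlo library.

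Pax1 and Pax9 are closely related paired-box factors of the pouch endoderm. Pax1 lies on chr2:147361925-147393295 and Pax9 on chr12:56691767-56712822, both on the plus strand, and each shares exon sequence with a gene on the opposite strand (AI646519 and Slc25a21). Since the library type is described in conflicting ways, reads of these partners may not have been told apart, and the levels of both genes carry that uncertainty. Pax1 was 107 and 78.0 CPM in Tspan8negMHCIIlo, 48.7 and 48.0 in Tspan8negMHCIIhi, 35.6 and 35.3 in Tspan8posMHCIIhi and 48.8 and 59.6 in Tspan8posMHCIIlo. Tspan8negMHCIIlo was above every other subset and Tspan8posMHCIIhi below every other subset.

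From Tspan8negMHCIIlo to Tspan8posMHCIIhi Pax1 fell 2.60-fold (-1.38 ± 0.18 SE, edgeR adjusted p = 0.000103). It was 1.91-fold lower in MHCIIhi than in MHCIIlo of Tspan8neg cells (-0.93 ± 0.17 SE, adjusted p = 0.00139) and 1.67-fold lower with Tspan8 in MHCIIlo cells (-0.74 ± 0.18 SE, adjusted p = 0.00625). Neither passed the fold limit, but without the second Tspan8negMHCIIlo library the difference between the MHCII levels was -1.15 and was called. The remaining comparisons of Pax1 had adjusted p-values from 0.0357 to 0.514.

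Pax9 was flatter. Its level was 110 and 82.9 CPM in Tspan8negMHCIIlo, 84.3 and 78.8 in Tspan8negMHCIIhi, 61.8 and 69.5 in Tspan8posMHCIIhi and 57.0 and 61.3 in Tspan8posMHCIIlo. All Tspan8neg libraries were above all Tspan8pos libraries, while neighbouring MHCII levels lay close together. Pax9 was called in none of the 7 comparisons, with 1.62-fold lower levels with Tspan8 in MHCIIlo cells (-0.70 ± 0.17 SE, adjusted p = 0.00629) and 1.24-fold lower levels in MHCIIhi cells (adjusted p = 0.147). The share of Pax1 in the summed CPM per kilobase of the pair was 52.2% and 51.4% in Tspan8negMHCIIlo, 49.1% and 52.3% in Tspan8posMHCIIlo, 39.4% and 40.7% in Tspan8negMHCIIhi and 39.3% and 36.4% in Tspan8posMHCIIhi. The share was thus lower in all 4 MHCIIhi libraries than in all 4 MHCIIlo libraries.

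Promoter sequence is shown for Foxn1, for the related pair Pax1 and Pax9, which differ in the Foxn1 core, and for Hoxa3 and Isl1, the other members that hold it. The forkhead domain of Foxn1 recognises a short core, and its letters GACGC were searched on both strands (GCGTC on the other) in the 300 bases from 250 before to 50 after each RefSeq start in GRCm38.p6. A promoter was given for 6 of the 8 members, 7 promoters in all, and for Eya1 and Trp63 none was used. The sequences run 5′ to 3′ on the strand of the gene, and capitals mark the core on either strand.
Foxn1, chr11:78386559-78386858, minus strand: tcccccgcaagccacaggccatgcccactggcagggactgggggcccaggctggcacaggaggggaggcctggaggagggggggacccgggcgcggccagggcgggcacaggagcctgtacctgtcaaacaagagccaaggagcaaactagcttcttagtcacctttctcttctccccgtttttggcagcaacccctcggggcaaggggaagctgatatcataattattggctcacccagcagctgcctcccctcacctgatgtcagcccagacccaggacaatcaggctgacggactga
Pax1, chr2:147364744-147365043, plus strand: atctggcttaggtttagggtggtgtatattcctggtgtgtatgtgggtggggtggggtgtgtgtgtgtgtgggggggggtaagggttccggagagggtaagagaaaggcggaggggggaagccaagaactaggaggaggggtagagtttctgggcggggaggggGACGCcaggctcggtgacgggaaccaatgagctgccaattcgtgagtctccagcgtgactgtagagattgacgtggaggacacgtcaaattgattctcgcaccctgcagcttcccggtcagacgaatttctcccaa
Pax9, chr12:56695221-56695520, plus strand: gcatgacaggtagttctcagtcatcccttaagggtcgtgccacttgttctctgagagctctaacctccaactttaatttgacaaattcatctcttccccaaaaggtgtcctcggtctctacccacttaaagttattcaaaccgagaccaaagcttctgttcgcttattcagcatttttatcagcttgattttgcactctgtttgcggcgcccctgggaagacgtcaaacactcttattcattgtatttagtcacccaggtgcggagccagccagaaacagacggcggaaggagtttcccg
Hoxa3, chr6:52213018-52213317, minus strand: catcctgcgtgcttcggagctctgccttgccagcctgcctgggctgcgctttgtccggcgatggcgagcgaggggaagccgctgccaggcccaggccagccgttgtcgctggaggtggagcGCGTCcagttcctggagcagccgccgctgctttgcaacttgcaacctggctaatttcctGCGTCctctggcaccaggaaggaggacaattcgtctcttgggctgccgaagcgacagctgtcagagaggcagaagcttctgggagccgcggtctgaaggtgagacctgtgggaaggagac
Isl1, chr13:116309639-116309938, minus strand: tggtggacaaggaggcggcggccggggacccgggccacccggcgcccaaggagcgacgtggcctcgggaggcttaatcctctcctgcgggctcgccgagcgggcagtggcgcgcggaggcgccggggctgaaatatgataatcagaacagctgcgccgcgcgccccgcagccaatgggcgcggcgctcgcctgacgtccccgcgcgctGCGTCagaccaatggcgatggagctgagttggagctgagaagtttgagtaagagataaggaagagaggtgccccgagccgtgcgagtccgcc

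The core was present in the Pax1 and Isl1 promoters and in that of Hoxa3, 3 of the 7 promoters, and in 27.2% of 32851 promoters of this length. It was not among the letters of the Foxn1, Pax9 or Six4 windows. The Ets core CCGGAA, searched on both strands, was in the Pax1 promoter and in both Six4 promoters, and in 14.9% of all promoters. The Kruppel-like core CACCC was in 6 of the 7 promoters, all but that of Hoxa3, and in 57.5% of all promoters. The Six4 windows (chr12:73113196-73113495 and chr12:73113376-73113675) overlap. The only Kruppel-like match of the former lies in the shared stretch, so that site was counted in both. The letters of these cores did not overlap, and a match describes sequence and does not show that a factor binds there.

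Hoxa3 was the scarcest member and was found mainly in Tspan8negMHCIIlo. This homeobox gene, needed for the pouch to form thymus and parathyroid, lies on the minus strand of chr6:52169062-52213336 among antisense transcripts of the Hoxa cluster (Hoxaas2 and Hoxaas3) and overlaps Gm28308 on its own strand, so its counts are uncertain. Its libraries held 41 and 27 counts in Tspan8negMHCIIlo, 7 and 13 in Tspan8negMHCIIhi, 1 and 5 in Tspan8posMHCIIhi and 3 and 15 in Tspan8posMHCIIlo. In CPM these were 11.5 and 6.34, 1.45 and 1.66, 0.199 and 1.01, and 1.65 and 2.04. Counts exceeded the floor of 3 in 6 of the 8 libraries, and the Tspan8negMHCIIlo libraries were above all others. Hoxa3 passed the filter on low counts only through the Tspan8negMHCIIlo libraries. Comparisons of that subset with others were thus made on a gene selected by its level there, and their p-values are a description.

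In Tspan8neg cells Hoxa3 fell 5.58-fold from MHCIIlo to MHCIIhi (-2.48 ± 0.59 SE, 95% interval -3.78 to -1.18, edgeR adjusted p = 0.00587). This call was lost with DESeq2 (adjusted p = 0.0245) and when any of 3 of the 4 libraries was left out, the first Tspan8negMHCIIlo library (-2.01, adjusted p = 0.0425) and either Tspan8negMHCIIhi library (adjusted p = 0.0604 and 0.061). In Tspan8posMHCIIhi it was lower than in Tspan8negMHCIIlo (-3.82 ± 0.69 SE, 95% interval -5.34 to -2.31, adjusted p = 0.000972), a call lost without the first Tspan8posMHCIIhi library (adjusted p = 0.0116). Between Tspan8 levels of MHCIIlo cells the difference was -2.20 ± 0.61 SE with an adjusted p of 0.0143, and without the second Tspan8negMHCIIlo library it was -2.57 and was called. Of 10 other Hoxa genes 3 were expressed enough to be tested, and Hoxa2 was called in MHCIIhi cells, at 1.86 and 1.66 CPM without Tspan8 and 0 counts in both libraries with it.

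Partners of the pouch network were called in shares near or below those of all genes along the axes of the sort. The shares were 23.8% with Tspan8 in MHCIIlo cells (21.4% of all genes), 9.52% with Tspan8 in MHCIIhi cells (18.5%) and 28.6% between the MHCII levels of Tspan8neg cells (22.7%). Of 23 listed partners 21 were tested, and in Tspan8neg cells 5 were lower in MHCIIhi and 1 higher, and without the second Tspan8negMHCIIlo library Eya4 was a further gene called lower. Meis1, a cofactor of Hox proteins, fell 3.32-fold and Fgfr2 fell 7.46-fold, while the homeobox gene Nkx2-6 went from 1.40 and 0.47 CPM to 22.2 and 24.2 CPM. With Tspan8 in MHCIIlo cells 4 were lower (Six2, Six5, Gcm2 and Fgfr2, with Eya4 in place of Six5 without that library) and Gata3, a zinc finger factor of pouch and parathyroid, was 2.18-fold higher. Gata3 was also 3.86-fold higher with Tspan8 in MHCIIhi cells, at 9.11 and 10.6 CPM in Tspan8neg libraries and 42.1 and 34.9 CPM in Tspan8pos libraries, and Nkx2-6 was 4.21-fold lower there. Between the MHCII levels of Tspan8pos cells 0 of 21 were called, against 7.21% of all genes.

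The parathyroid genes Pth, Gcm2 and Casr stood highest in the same subset as Hoxa3, which patterns both organs, and the listed marker Tbx1 did not. Pth, the parathyroid hormone, was 133 and 152 CPM in Tspan8negMHCIIlo and between 0.272 and 9.87 CPM in the other libraries. Gcm2, the defining parathyroid factor, was 4.76 and 4.46 CPM in Tspan8negMHCIIlo, 1.86 and 3.44 in Tspan8negMHCIIhi, 0.199 and 0.405 in Tspan8posMHCIIhi and 0 and 0.136 in Tspan8posMHCIIlo. Casr averaged 35.4 CPM in Tspan8negMHCIIlo and 19.1 in Tspan8negMHCIIhi, the next highest subset. Tbx1 averaged 1.27 CPM in Tspan8negMHCIIlo, 2.46 in Tspan8negMHCIIhi, 1.01 in Tspan8posMHCIIhi and 1.51 in Tspan8posMHCIIlo. The 4 parathyroid markers summed to 182 and 186 CPM in Tspan8negMHCIIlo, most of it Pth, and to between 11.98 and 30.7 CPM elsewhere. Their part in the Hoxa3 difference was not tested.

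Trp63 was the member with a called difference between the 2 MHCII effects, against 4.6% of all genes. The gene lies on the plus strand of chr16:25683763-25892102, and counts per gene do not tell its isoforms with and without the transactivation domain apart. Its level was 141 and 110 CPM in Tspan8negMHCIIlo, 46.6 and 55.7 in Tspan8negMHCIIhi, 93.6 and 86.5 in Tspan8posMHCIIhi and 73.5 and 71.1 in Tspan8posMHCIIlo. None of the 4 subsets overlapped another, and the ends of the range were the 2 Tspan8neg subsets.

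In Tspan8neg cells Trp63 fell 2.44-fold from MHCIIlo to MHCIIhi (-1.28 ± 0.16 SE, edgeR adjusted p = 0.00011). In Tspan8pos cells the difference was 0.32 with a 95% interval from -0.04 to 0.68 (adjusted p = 0.222). The difference between the effects was -1.60 ± 0.23 SE (adjusted p = 0.00174), equal by construction to that between the Tspan8 effects, which were -0.80 ± 0.16 SE in MHCIIlo (adjusted p = 0.00261) and 0.81 ± 0.16 SE in MHCIIhi (adjusted p = 0.00245). The call of the difference was lost when the first Tspan8negMHCIIhi, the first Tspan8posMHCIIhi or either Tspan8posMHCIIlo library was left out, with adjusted p-values between 0.0103 and 0.0196.

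Basal epithelial genes known as p63 targets were counted between the MHCII levels. Of 16 such genes, 8 were lower and 2 higher in MHCIIhi of Tspan8neg cells (62.5% called against 22.7% of all genes), with 9 lower without the second Tspan8negMHCIIlo library. In Tspan8pos cells 3 were lower and 1 higher (25% called against 7.21% of all genes), and the difference between these counts was not tested. For single genes, a difference between the MHCII effects was called in 4.6% of all genes, and a negative one in 2.24%. The basal keratin Krt5 was 2033 and 1365 CPM in Tspan8negMHCIIlo, 271 and 241 in Tspan8negMHCIIhi, 1514 and 1456 in Tspan8posMHCIIhi and 1429 and 1341 in Tspan8posMHCIIlo. Krt5 was thus low in a single subset, 6.63-fold below Tspan8negMHCIIlo (-2.73 ± 0.18 SE, adjusted p = 1.8e-06), and its difference between the MHCII effects was -2.83 ± 0.24 SE (adjusted p = 0.000183). Its partner keratin Krt14, the laminin chain Lamb3, the Notch ligand Jag2 and Fgfr2 also had called, negative differences between the MHCII effects, 5 of the 16 genes in all and 9 without the second Tspan8negMHCIIlo library.

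With Tspan8, the p63 list split within itself. In MHCIIlo cells 6 genes were lower, among them Lamb3 5.46-fold, Krt14 3.62-fold and Jag2 3.79-fold, and 3 were higher, Krt15 5.91-fold, Perp 3.83-fold and Sfn 2.40-fold. Without the second Tspan8negMHCIIlo library 8 were lower and 2 higher, and Sfn was not called. In MHCIIhi cells 5 were higher and 0 lower, with the desmosomal gene Perp 9.67-fold (3.27 ± 0.24 SE), Krt5 5.79-fold and the 14-3-3 protein gene Sfn 3.89-fold higher. The shares called were 56.2% in MHCIIlo (21.4% of all genes) and 31.2% in MHCIIhi (18.5%). The median log2 fold change of the list was -0.81 in MHCIIlo and 0.14 in MHCIIhi. Of the Trp63 paralogs, Trp53 fell 2.48-fold and Trp73 fell 5.36-fold with Tspan8 in MHCIIlo cells, and by 2.13-fold and 5.81-fold in MHCIIhi cells.

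Isl1, on the minus strand of chr13:116298281-116309689, was highest in Tspan8negMHCIIlo. Its level was 44.8 and 42.5 CPM there, 20.9 and 28.4 in Tspan8negMHCIIhi, 16.9 and 19.5 in Tspan8posMHCIIhi and 15.4 and 16.9 in Tspan8posMHCIIlo. The Tspan8pos subsets met at 16.9 CPM, and all Tspan8neg libraries were above all Tspan8pos libraries. With Tspan8 in MHCIIlo cells Isl1 fell 2.67-fold (-1.42 ± 0.21 SE, edgeR adjusted p = 0.000326), and by -1.45 without the second Tspan8negMHCIIlo library. From Tspan8negMHCIIlo to Tspan8posMHCIIhi it fell 2.40-fold (-1.26 ± 0.20 SE, adjusted p = 0.000457). Between the MHCII levels it was 1.75-fold lower in MHCIIhi of Tspan8neg cells (adjusted p = 0.00651), below the fold limit, and differed by 0.15 with a 95% interval from -0.33 to 0.64 in Tspan8pos cells.

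Several neuroendocrine genes were also high in Tspan8negMHCIIlo. Of 11 listed genes 9 were tested, and in MHCIIlo cells 4 were lower with Tspan8 and 0 higher, where 9.34% of all genes were lower. The granule protein gene Chga was 489 and 635 CPM in Tspan8negMHCIIlo and 48.3 and 43.4 in Tspan8posMHCIIlo, 12.4-fold lower (-3.63 ± 0.28 SE, adjusted p = 2.56e-06). The zinc finger factor Insm1 fell 4.09-fold and Scg2 3.22-fold, with Scg2 not called without the second Tspan8negMHCIIlo library. In Tspan8neg cells 5 were lower in MHCIIhi, against 9.67% of all genes, among them the LIM cofactors Ldb1 (2.65-fold) and Lmo4 (3.08-fold). Insm1 rose 4.01-fold there, from 37.0 and 43.0 to 163 and 158 CPM.

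In MHCIIhi cells Insm1 was lower and Lmo4 higher with Tspan8. In Tspan8pos cells Insm1 alone was called between the MHCII levels, 5.23-fold higher in MHCIIhi. The share of the list called was 33.3% in the former comparison (18.5% of all genes) and 11.1% in the latter (7.21%). The list of neuroendocrine genes and Isl1 cofactors summed to 1078 and 1353 CPM in Tspan8negMHCIIlo and to between 303 and 484 CPM elsewhere. This sum is not a neuroendocrine level alone, since Ldb1 and Lmo4 averaged 126 and 50.6 CPM in Tspan8posMHCIIhi. Syp, like Insm1, was not highest in Tspan8negMHCIIlo, with a mean of 9.24 CPM there and 12.7 CPM in Tspan8negMHCIIhi. Whether the Isl1 difference lay in neuroendocrine cells was not tested.

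Markers of other cell types also differed between the subsets. In Tspan8neg cells 6 of 10 thymocyte markers were lower in MHCIIhi, and in MHCIIlo cells 5 were lower with Tspan8, counts that were equal without the second Tspan8negMHCIIlo library. Of all genes 9.67% were lower in the former comparison and 9.34% in the latter. Sums of the 4 endothelial markers were 131 and 91.9 CPM in Tspan8negMHCIIlo, 20.5 and 23.2 in Tspan8negMHCIIhi, 13.9 and 16.8 in Tspan8posMHCIIhi and 68.6 and 41.7 in Tspan8posMHCIIlo. Fibroblast markers summed to between 76.0 and 274 CPM, myeloid markers to between 59.4 and 484 CPM and B cell markers to between 19.3 and 51.0 CPM, with the lowest myeloid sums in Tspan8negMHCIIlo. Every member was lower in the second Tspan8negMHCIIlo library than in the first, by 1.00-fold to 1.37-fold for 7 members and 1.81-fold for Hoxa3. The part of these cells in the results above was not tested, and Foxn1 (1.66) and Eya1 (-2.07) kept their calls between the MHCII levels of Tspan8neg cells without that library.

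**Figure D5:**
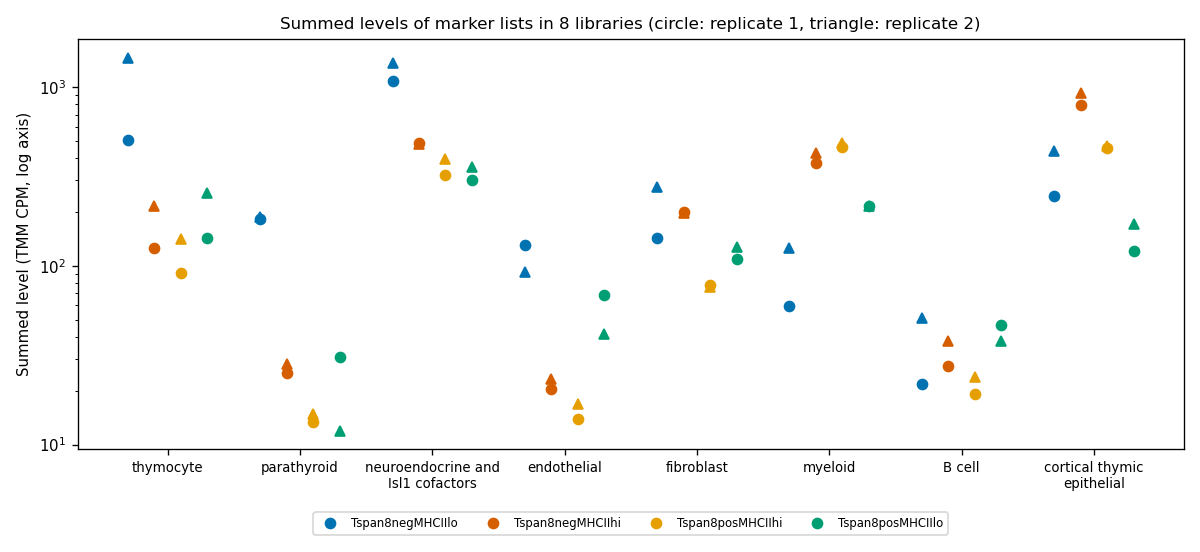
Summed CPM of the marker lists of other cell types in each library, on a log axis, by subset. Thymocyte markers reach 1449 CPM in the second Tspan8negMHCIIlo library, and parathyroid markers stand at 182 and 186 CPM in that subset against at most 30.7 CPM elsewhere.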

How the data were processed

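RNA-seq of 8 libraries of sorted mTECs was analysed, and libraries were grouped by the subset and replicate number in the sample titles. The deposited values are estimated counts for each gene in 1 table, which the authors quantified with Salmon 1.8.0 on a Gencode mouse transcriptome (mm10) per the labels and the study's methods, without normalization. The values were whole numbers, so rounding changed none. All count columns were mapped to a library. Preparation is described both as a strand-specific mRNA kit and as tagmentation of amplified cDNA, so genes with overlapping exons are uncertain. Of 25466 identifiers, 25336 matched a symbol in a later GENCODE release for GRCm38, which gave coordinates and exon lengths.

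Counts were tested in R 4.3.3 with edgeR 4.0.16 (quasi-likelihood test, TMM, filterByExpr, 1 mean per subset in a fit of all 8 libraries) and Benjamini-Hochberg adjustment over 17006 genes. All p-values are two-sided. The common dispersion was 0.024, a coefficient of variation of 15.5% between libraries. SE values are the size of a fold change (log2) over the root of its F statistic. Thresholds were read from the study's plots. The fits were tested on simulated data. With 2 libraries per group an exact permutation test cannot reach 0.05, so none was run. The floor of 3 counts covers counting error only, since amplified reads are not independent molecules.

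The members and all gene lists were chosen with earlier results of these data known, and the lists support nothing by themselves. All members were named in every comparison. From each list the counts called, its most expressed genes and the called genes with the largest changes were named, and other list genes where a list had few calls. The genes most like a member were taken by Pearson correlation of log2 CPM with a prior count of 2. Alternatives were DESeq2 1.42.0, its size factors in edgeR, other filters on low counts, the 4 libraries of a comparison alone, the replicate number as a block, other thresholds and leaving out each library. List counts without the second Tspan8negMHCIIlo library were added after seeing the data. Values of a few listed genes are not reported here. ATAC-seq and ChIP-seq were not analysed here.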

Additional observations from a re-analysis of the deposited data

Results flagged for a closer look

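The effect of MHCII differed between Tspan8neg and Tspan8pos cells, by edgeR's test of the difference itself, in Trp63 and in the listed genes named here, with adjusted p-values from 0.000183 to 0.00873. Each value is the log2 fold change of MHCIIhi against MHCIIlo in Tspan8neg cells minus that in Tspan8pos cells. Such a difference was called in 4.6% of all genes. Trp63 was at -1.60 (adjusted p = 0.00174). Among the basal genes the values were -2.83 for Krt5, -2.29 for Krt14, -2.90 for Lamb3, -1.13 for Jag2 and -2.55 for Fgfr2. Among Foxn1-dependent genes and regulators of Foxn1 they were -2.15 for Cxcl12, -1.78 for Ctsl, -1.63 for Wnt4 and -1.10 for Kremen1. The neuroendocrine gene Chga and the cofactor gene Lmo4 were at -3.12 and -1.84, and the mTEC chemokine gene Ccl21a was at -3.54. The costimulatory ligand gene Cd80 (1.97) and the pouch factor gene Nkx2-6 (3.74) had values above 0. Groups of 2 libraries were too small to test a single library as an outlier.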

How the results depend on the processing

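Of 694 values of the 8 members under other settings, 663 kept their direction and their side of the thresholds, 19 passed where they had not (11 of them through dropping the fold limit), 9 no longer passed and 3 changed sign. The cause was not tested except where fewer samples or the dropped limit is the setting itself. Between Tspan8 levels of MHCIIlo cells the count of members called was 1, and became 2 with at least 10 counts in at least 4 libraries (Hoxa3 added), 2 at an adjusted p of 0.05, 4 without the fold limit, and 1 to 2 when a library was left out. In MHCIIhi cells it was 0, and 3 without the fold limit (Foxn1, Eya1 and Trp63). Between MHCII levels of Tspan8pos cells it was 1, 2 without the fold limit, and 1 to 2 with a library left out, Foxn1 being added without the first Tspan8posMHCIIhi library. For the difference between the MHCII effects it was 1, and 0 to 1 with a library left out. Leaving out a library left 1 sample in its subset, which was assumed to vary like the others. Sign changes were seen in values near 0 or with wide intervals. With each library left out in turn, the log2 fold change of Foxn1 between Tspan8 levels of MHCIIlo cells ranged from -0.055 to 0.10 and was below 0 (-0.055 and -0.033) without the second library of Tspan8negMHCIIlo or of Tspan8posMHCIIlo. The difference of Hoxa3 between the MHCII effects ranged from -1.60 to 0.63, the latter without the second Tspan8posMHCIIhi library. With the replicate number as a block, the counts of members called were 1, 0, 4 and 1 in the 4 comparisons along the sort, 2 and 4 on the diagonals and 1 for the difference, as without it, and 0 member calls changed. Same-numbered libraries deviated with correlations of 0.00403 to 0.0924, so the numbers were not taken to pair them. Depth limited Hoxa3, with 1 to 15 counts in the 6 libraries outside Tspan8negMHCIIlo.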

Other observations

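Of 23 listed paralogs of the members 19 were tested, and the shares called were near those of all genes. With Tspan8, 5 were lower in MHCIIlo cells (26.3%, against 21.4% of all genes) and 4 in MHCIIhi cells (21.1%, against 18.5%), with 0 higher. In Tspan8neg cells 3 were lower in MHCIIhi (Six2, Six5 and Foxn3) and 2 higher (Pax7 and Pax8), 26.3% against 22.7% of all genes, and in Tspan8pos cells 0 were called. Without the second Tspan8negMHCIIlo library, with 21 paralogs tested, Pax3 was higher with Tspan8 in MHCIIlo cells and Eya4 took the place of Six5 among the 5 lower. Between the MHCII levels of Tspan8neg cells Eya4 was then also lower, and Pax5 and Pax7 were the genes higher. Trp53 was 200 CPM in both Tspan8negMHCIIlo libraries, 237 and 192 in Tspan8negMHCIIhi, 102 and 99.9 in Tspan8posMHCIIhi and 85.0 and 77.5 in Tspan8posMHCIIlo, so that all Tspan8neg libraries were above all Tspan8pos libraries. Foxn3, a relative of Foxn1, ran the other way from Foxn1 in Tspan8neg cells, at 43.3 ± 1.39 CPM in MHCIIlo and 18.6 ± 1.77 CPM in MHCIIhi.

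General markers of thymic epithelium were higher with Tspan8 in 4 of 5 cases in MHCIIlo cells and in 3 of 5 in MHCIIhi cells, and without the second Tspan8negMHCIIlo library 1 of 5 was called in MHCIIlo cells. Of 7 medullary markers, 3 were higher (Aire, Fezf2 and Cd80) and 3 lower (Krt5, Krt14 and Ccl21a) in MHCIIhi of Tspan8neg cells, and 3 higher (Aire, Fezf2 and Cd80) in MHCIIhi of Tspan8pos cells. With Tspan8, 1 was higher and 3 lower in MHCIIlo cells, and 2 higher and 2 lower in MHCIIhi cells. For comparison with these lists, 12.1% of all genes were higher and 9.34% lower with Tspan8 in MHCIIlo cells. In MHCIIhi cells the shares were 11% and 7.45%. Between the MHCII levels 13.1% were higher and 9.67% lower in MHCIIhi of Tspan8neg cells, and 4.59% and 2.62% in Tspan8pos cells. Of 6 cortical markers 3 were higher in MHCIIhi of Tspan8neg cells, or 2 without the second Tspan8negMHCIIlo library (Enpep lost), and 2 in MHCIIhi of Tspan8pos cells, and 2 were lower with Tspan8 in MHCIIlo cells, or 0 without that library.

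As a description of likeness, the Pearson correlation of log2 CPM over the 8 libraries was computed between each member and 13036 genes of at least 5 CPM. The libraries fall into 4 subsets, so these values compare few independent levels. The genes closest to Foxn1 were Rab21, Gm29461 and Atp2b2, each with r = 0.998. Closest to Eya1 were Slit2 (0.993), Trpv4 (0.989) and Dtnb (0.989), and closest to Pax1 were Socs7 (0.993), Lamb2 (0.985) and Cdon (0.980). Trp63 was nearest to Rgs4 (0.983), Isl1 to Lsm3 (0.983), Pax9 to Sema4c (0.985) and Six4 to Phka1 (0.971).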
